A study of Nannospalax ehrenbergi and Mus musculus with 25 samples.

Results

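The proteasome subunit genes were read from RNA sequencing of neck-side tissue of the blind mole rat Spalax, a long-lived subterranean rodent, and of the house mouse. All genes named Psm followed by a letter from a to g and a number were taken, which gave 47 of the 27988 genes in the Spalax table and 49 of the 47593 genes in the mouse table. Psmg2 and Psme2b had a line in the mouse table only, so 47 genes were shared. Spalax gave 16 libraries and mouse gave 9.

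Treated animals of both species had received a single injection of 3-methylcholanthrene (3MCA), a polycyclic hydrocarbon that forms DNA adducts and induces sarcomas, under the skin of the left neck flank. The dose was 1 mg in Spalax and 200 µg in mouse. IS denotes the injected side, which holds the tumor where one grew, and UIS the uninjected side of the neck. Spalax groups were untreated control (4 animals, uninjected side), tolerant animals that were injected and grew no tumor (4 animals, injected side, taken at 18 or 30 months), granuloma UIS and IS (the same 2 animals, 14 and 16 months), and fibrosarcoma UIS and IS (the same 2 animals, 18 and 30 months). Mouse groups were untreated C57BL/6 control (3 animals), and fibrosarcoma UIS and IS (the same 3 animals, 11 to 14 weeks). Spalax were wild-caught adults of mixed and partly unknown age, and the mice were young inbred males. The 4 Spalax controls were female and 3 of the 4 tolerant animals were male, so sex was not balanced in that comparison. Each value is a read count scaled by the size factor of its library, called a normalized count here.

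The proteasome is the cell's main machine for degrading proteins marked with ubiquitin. Its 20S core is a barrel of stacked rings, with alpha subunits (Psma) in the outer rings that gate the entry and beta subunits (Psmb) in the inner rings, of which Psmb5, Psmb6 and Psmb7 carry the proteolytic sites. The 19S cap, made of the Psmc ATPases and the Psmd subunits, binds ubiquitin chains and unfolds the substrate, while the Psme proteins form other caps. Under interferon, cells make Psmb8, Psmb9 and Psmb10, which replace the constitutive catalytic subunits and form the immunoproteasome that cuts peptides for class I antigen presentation. In skeletal muscle the ubiquitin-proteasome system degrades myofibrillar protein during wasting, with the ubiquitin ligases Trim63 and Fbxo32 (MuRF1 and atrogin-1) as its best known markers.

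Each inducible subunit stands in for 1 constitutive subunit at the same place in the ring: Psmb8 for Psmb5, Psmb9 for Psmb6 and Psmb10 for Psmb7. The coding sequences of the mouse genes are shown from the codon of the catalytic threonine, which becomes the first residue when the propeptide is cut off, because these pairs carry the main contrast below and their reads must be told apart. They were read from GENCODE vM21 transcript sequences, with positions on GRCm38. The first 60 coding bases from that codon are given 5′ to 3′ on the coding strand, and the capitals mark the threonine codon.
Psmb5: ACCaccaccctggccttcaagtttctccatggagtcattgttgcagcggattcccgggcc
Psmb8: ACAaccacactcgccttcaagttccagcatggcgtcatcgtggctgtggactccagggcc
Psmb6: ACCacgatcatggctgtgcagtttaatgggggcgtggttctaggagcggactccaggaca
Psmb9: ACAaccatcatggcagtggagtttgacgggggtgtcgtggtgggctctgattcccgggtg
Psmb7: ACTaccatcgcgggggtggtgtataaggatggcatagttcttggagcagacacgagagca
Psmb10: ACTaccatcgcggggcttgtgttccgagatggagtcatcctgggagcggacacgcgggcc
All 6 stretches are coding exon sequence. That of Psmb5 lies within chr14:54616783-54617814 on the minus strand (exons 1 and 2), and that of Psmb8 at chr17:34199302-34199361 on the plus strand (exon 2). Psmb6 was read from chr11:70525885-70525944 (plus strand, exon 2), Psmb9 from chr17:34185738-34185797 (minus strand, exon 2), Psmb7 from within chr2:38642243-38643384 (minus strand, exons 2 and 3) and Psmb10 from within chr8:105937559-105937705 (minus strand, exons 2 and 3). From the threonine codon to the stop codon, Psmb5 and Psmb8 were identical at 71.7% of aligned bases, Psmb6 and Psmb9 at 67.9%, and Psmb7 and Psmb10 at 66.1%. Their longest shared runs were 18, 11 and 15 bases, against reads of 101 bases, so reads of the pairs can be separated in mouse. The Spalax sequences were not examined. Among mouse members, the share of read-length windows also found in another annotated gene was largest for Psme2b (51.7%, Psme2), Psme2 (44.2%, Psme2b), Psma5 (27.1%) and Psmb5 (24.4%), whose counts are less certain, and was 0 for Psmb7, Psmb8, Psmb9 and Psmb10. Of the exon bases of Psmb8, 14.7% overlap Gm20496 on the opposite strand, and of those of Psmb9 5.8% overlap Tap1. The libraries were stranded, but the strand setting of the counting is not given in the sources used here.

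Recovered reads ranged from 17025447 to 23386729 per library in Spalax and from 22143060 to 31179183 in mouse. The muscle label was checked with 11 muscle fiber genes, of which 8 had a line in Spalax. Their summed level was 1833130 to 3035940 in Spalax control, 1186830 to 2516370 in granuloma UIS and 2369750 to 2639110 in fibrosarcoma UIS, but 450.1 to 7355 in granuloma IS and 965 to 1297 in fibrosarcoma IS. In mouse the sum was 1128580 to 2393990 in control, 1994450 to 4530110 in UIS and 287 to 81786 in IS. The IS libraries thus held little muscle RNA, and every IS against UIS difference below compares tumor with muscle. In such bulk tissue, fewer cells of a type and less RNA per cell cannot be told apart. Libraries of controls and tolerant animals carried dual indexes and those of tumor-bearing animals single indexes, so index type and these groups cannot be told apart outside the IS against UIS comparisons. The summed level of 4 cycling genes was 6020.3 to 6914 in granuloma IS, 13104 to 15525 in Spalax fibrosarcoma IS and 11819 to 14450.4 in mouse IS, against 607 to 1738 in the other libraries, and that of 6 fibroblast genes was 843097 to 1835330, 112895 to 428583 and 140987 to 166614, against 4010.8 to 184469. The part of muscle, fibroblast and cycling content in the results below was not tested. The UIS libraries of Spalax 976 and mouse 512 stood apart from the others of their groups, and several tumor differences are also given without them.

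Most core and 19S subunit genes had lower normalized counts in tumors than in UIS muscle, whereas the interferon-inducible Psmb8, Psmb9, Psme1 and Psme2 rose in Spalax fibrosarcoma. With limma on log2 normalized counts, 46 of the members could be tested in each comparison, and a gene was called at an adjusted p of at most 0.05. Log2 differences are IS minus UIS and are given ± 1 SE of the fit. In granuloma 0 members were called higher and 5 lower, where 11.7% of all genes were called higher and 12.6% lower. In Spalax fibrosarcoma 4 members were called higher and 10 lower, beside 17.4% and 19% of all genes. In mouse fibrosarcoma 0 were called higher and 23 lower, beside 22.8% and 22.3%. The share of members called lower was thus about the background in granuloma and Spalax fibrosarcoma and above it in mouse.

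**Figure D1:**
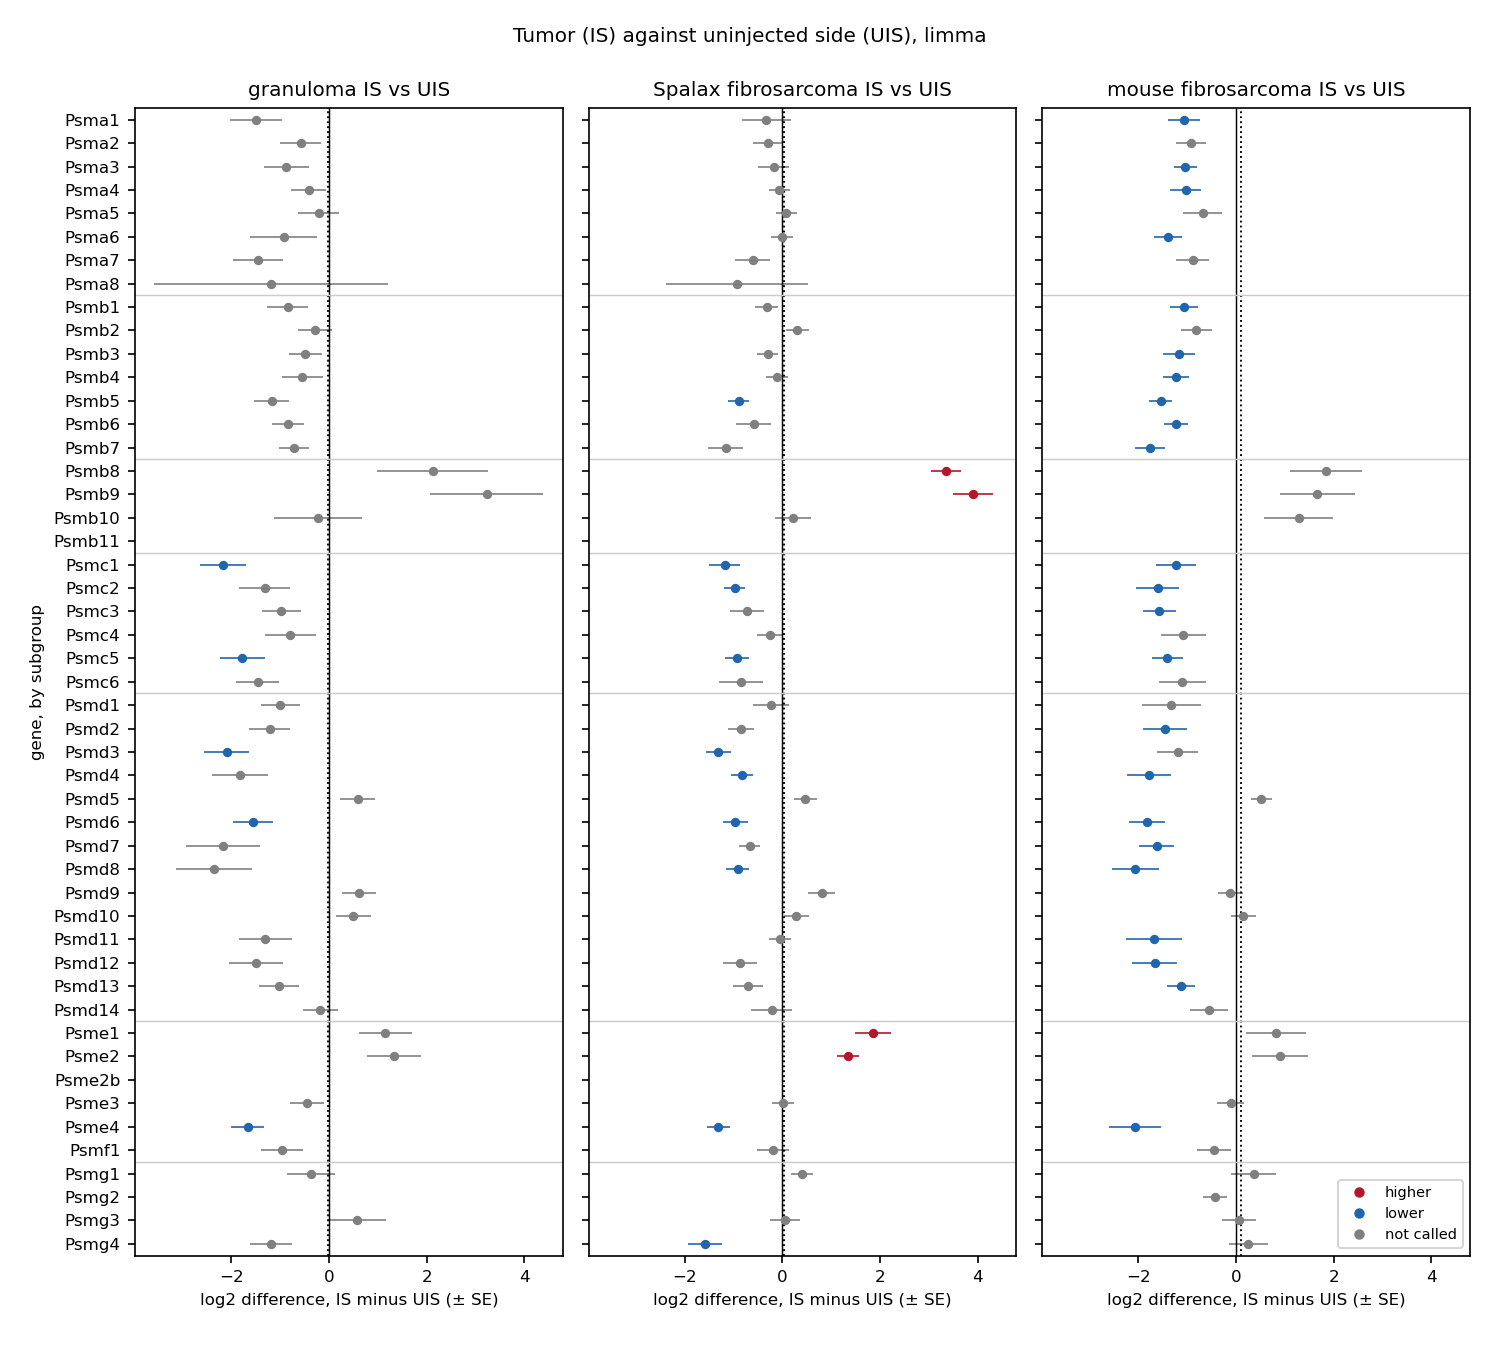
Fitted log2 difference, on the scale of the authors' size factors, between IS and UIS (horizontal axis, with 1 SE) of each tested member in granuloma, Spalax fibrosarcoma and mouse fibrosarcoma, ordered by role. Red points were called higher, blue points lower and gray points not called, and the dotted line is the median of all genes tested. Most core and 19S genes lie left of that line in all 3 panels, while Psmb8, Psmb9, Psme1 and Psme2 lie right of it.

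The median log2 difference of the 46 tested members was -0.90 in granuloma, -0.30 in Spalax fibrosarcoma and -1.07 in mouse, beside medians over all genes of -0.01, 0.03 and 0.11. Below that all-gene median lay 38, 34 and 37 of the 46 members. Libraries of IS and UIS did not overlap, with IS lower, for 30, 21 and 31 members, where 34.8%, 36.4% and 29.2% of all genes behaved so. These differences depend on the scaling. When libraries were scaled by total reads instead of the authors' size factors, the median over all genes moved to 0.72, 0.83 and 1.16 and that of the members to -0.16, 0.51 and -0.00. The members then numbered 3 called higher and 0 lower in granuloma, 14 and 0 in Spalax fibrosarcoma, and 9 and 1 in mouse, where 23% and 7.67%, 35.3% and 11.4%, and 49.8% and 11% of all genes were called. What held under both scalings is that the members' median lay below that of all genes. Falls of core and 19S genes in the following paragraphs are therefore falls relative to the median gene.

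Relative to the median gene, most of the constitutive 20S core fell in mouse. Of the 7 beta subunits 6 were called lower there, and of the 7 tested alpha subunits 4 (Psma1, Psma3, Psma4, Psma6). Psmb5, the chymotrypsin-like subunit, stood at 2028, 1831 and 2436 normalized counts in UIS of mice 1019, 1023 and 512 and at 604, 728 and 828 in their IS, with 1389, 2372 and 1449.6 in controls. All 3 tumors lay below all 6 muscle libraries. The log2 difference between IS and UIS was -1.54 ± 0.23 with a limma adjusted p of 0.004. Psmb7, the trypsin-like subunit, stood at 2653, 2774 and 4902 in UIS and 841, 909 and 1212 in IS, a difference of -1.76 ± 0.31 and the 1 member still called lower when libraries were scaled by total reads (-0.69, limma adjusted p = 0.044). For Psmb6, the caspase-like subunit, the values were 3963, 3537 and 4619.8 in UIS and 1539, 1509 and 2201 in IS, and the difference was -1.22 ± 0.25.

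In Spalax 1 constitutive core gene was called, Psmb5 in fibrosarcoma, and with the animal as a block it was Psmb7 instead. Psmb5 measured 3024 and 2896 in fibrosarcoma UIS of animals 2230 and 2240 and 1687 and 1506 in their IS, against 4237, 3133, 5966 and 3756 in controls. Its difference was -0.89 ± 0.21 with a limma adjusted p of 0.035, and 0.074 with the animal as a block. In granuloma Psmb5 measured 2993 and 4135 in UIS of animals 600 and 976 and 1753 and 1388 in IS (-1.17 ± 0.35, limma adjusted p = 0.065). Here too the libraries of the sides did not overlap. Without the block Psmb6 and Psmb7 were not called in either Spalax tumor, with log2 differences of -0.83 and -0.72 in granuloma and -0.59 and -1.16 in fibrosarcoma, although both were lower in every IS than in every UIS library. Psmb7 in fibrosarcoma was called lower with the block (limma adjusted p = 0.049) and by DESeq2 (adjusted p = 0.037). Under scaling by total reads Psmb6 in fibrosarcoma (0.22) and Psmb7 in granuloma (0.02) changed sign. Over the 8 alpha subunits the median was -0.90 in granuloma and -0.24 in fibrosarcoma, with 0 called in either.

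The 6 ATPases and 14 Psmd genes of the 19S cap made up a large part of the 46 tested members. Of the members called lower, 4 of the 5 in granuloma and 7 of the 10 in Spalax fibrosarcoma were 19S genes. In mouse these were 12 of the 23, nearer to their share of the members tested. With the animal as a block these were 2 of 3, 1 of 4 and 14 of 26, so that in Spalax fibrosarcoma they were no longer most of the genes called. Of the 6 ATPases, which form the unfolding ring, 2 were called lower in granuloma, 3 in Spalax fibrosarcoma and 4 in mouse, and all 6 had a negative difference in each tumor. Psmc1 stood at 5206 and 9561 normalized counts in granuloma UIS and at 1205 and 2050.1 in IS, and at 5159 and 4897 in fibrosarcoma UIS and 1738 and 2838 in IS. Both tumors lay below their UIS, and the UIS library of 976 was far above the other 3. The log2 difference was -2.17 ± 0.47 in granuloma (limma adjusted p = 0.031) and -1.18 ± 0.32 in fibrosarcoma (limma adjusted p = 0.047). In mouse it was -1.23 ± 0.41. For Psmc5, another ATPase, the granuloma difference was -1.77 ± 0.47, that of Spalax fibrosarcoma -0.93 ± 0.24 and that of mouse -1.40 ± 0.32, all called lower. Without UIS 976 the granuloma differences of Psmc1 and Psmc5 were -1.73 and -1.24. With the block, Psmc1 and Psmc5 were not called in Spalax fibrosarcoma (limma adjusted p = 0.059 and 0.082), nor Psmc5 in granuloma (0.065).

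Of the 14 Psmd genes, which encode the non-ATPase subunits of the cap and 3 of its chaperones, 2 were called lower in granuloma (Psmd3, Psmd6), 4 in Spalax fibrosarcoma (Psmd3, Psmd4, Psmd6, Psmd8) and 8 in mouse. Psmd3, a scaffold subunit of the lid, measured 3599.8 and 7427 in granuloma UIS and 1046 and 1413 in IS, and 4063 and 3464 in fibrosarcoma UIS and 1322 and 1719 in IS. Its log2 difference was -2.09 ± 0.46 in granuloma (limma adjusted p = 0.032) and -1.31 ± 0.25 in fibrosarcoma (limma adjusted p = 0.021). The sides did not overlap for Psmd3 in either tumor. Psmd8, a further lid subunit, stood at 5091, 6595 and 16851 in mouse UIS and 1611, 1770 and 2735 in IS, with 3631, 5167 and 4047 in controls (-2.06 ± 0.49, limma adjusted p = 0.016). Among the UIS libraries that of mouse 512 was the highest by far. Granuloma UIS showed a like spread for Psmd8, with 4850.3 and 24077 in animals 600 and 976 against 2021 and 2208 in IS, and this difference of -2.35 ± 0.78, not called (limma adjusted p = 0.081), was -1.20 without UIS 976. Psmd6 of the lid differed by -1.55 ± 0.41, -0.96 ± 0.25 and -1.83 ± 0.37 in granuloma, Spalax fibrosarcoma and mouse, and Psmd4, a ubiquitin receptor, by -0.82 ± 0.22 in Spalax fibrosarcoma and -1.78 ± 0.45 in mouse. Psmd4, Psmd6 and Psmd8 in Spalax fibrosarcoma were not called once the animal was a block (limma adjusted p = 0.097, 0.073 and 0.088), and neither was Psmd6 in granuloma (0.062).

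Not every Psmd gene followed. Psmd5, Psmd9 and Psmd10, picked out after their values were seen, encode chaperones that help assemble the 19S base and are not subunits of the finished particle. Psmd5 stood at 634, 549.7 and 729.9 in mouse UIS and 826, 951 and 956 in IS, and at 505 and 489 in Spalax fibrosarcoma UIS and 728 and 649.8 in IS. All tumors lay above their UIS libraries. The log2 differences of Psmd5 were 0.59, 0.47 and 0.52 in granuloma, Spalax fibrosarcoma and mouse, those of Psmd9 0.61, 0.81 and -0.11, and those of Psmd10 0.50, 0.29 and 0.15, none of them called. With scaling by total reads Psmd5 and Psmd9 were called higher in all 3 tumors, Psmd5 by 1.33, 1.28 and 1.59 (limma adjusted p = 0.039, 0.018 and 0.0016). In mouse 25.5% of the Psmd9 exon bases overlap a gene on the opposite strand.

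The inducible catalytic subunits went the other way. In Spalax fibrosarcoma Psmb8 stood at 144 and 103 normalized counts in UIS of 2230 and 2240 and at 1364 and 1138 in IS, with 183, 290.3, 256 and 92.5 in the 4 controls. Psmb9 stood at 52.6 and 48.5 in UIS and 585 and 1012 in IS, with 77.3, 95.3, 118 and 31.8 in controls. Both tumors were above every control, tolerant and UIS library of Spalax for both genes. The log2 difference was 3.35 ± 0.31 for Psmb8 (limma adjusted p = 0.0052) and 3.90 ± 0.41 for Psmb9 (limma adjusted p = 0.0061), the 2 largest of all members. Psmb10 did not join them, at 316 and 289 in UIS and 459 and 268 in IS (0.22 ± 0.38, limma adjusted p = 0.68).

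The 2 granulomas gave unlike values. Psmb8 stood at 119 and 55.4 in UIS of 600 and 976 and at 118 and 1086 in IS, and Psmb9 at 45.8 and 22.4 in UIS and 101 and 944 in IS. Psmb10 stood at 292 and 247 in UIS and 92.9 and 563 in IS. In granuloma 976 all 3 genes were above their UIS, while in granuloma 600 Psmb8 was level with its UIS and Psmb10 was below it. None was called, with log2 differences of 2.12 ± 1.13, 3.23 ± 1.16 and -0.23 ± 0.90 and limma adjusted p of 0.22, 0.098 and 0.87. DESeq2 on the recovered reads called Psmb8 and Psmb9 higher in granuloma (adjusted p = 0.025 and 0.0012).

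In mouse, Psmb8 stood at 244, 302 and 326 in controls, 566, 535 and 107 in UIS of 1019, 1023 and 512, and 2019, 1019.6 and 728 in IS. Psmb9 stood at 128, 185 and 226 in controls, 302, 339 and 70.5 in UIS and 1270.5, 594 and 310 in IS. Psmb10 stood at 346, 549 and 396 in controls, 386, 492 and 93.6 in UIS and 1158, 448 and 498 in IS. Each tumor exceeded the UIS of its own animal for Psmb8 and Psmb9, but mouse 512 had low values on both sides, so that for Psmb9 its tumor lay within the range of the other UIS libraries. Without a block for the animal none was called (1.84 ± 0.73, 1.66 ± 0.76 and 1.28 ± 0.70, with limma adjusted p of 0.079, 0.12 and 0.18). IS and UIS came from the same animals, and with the animal as a block Psmb8 and Psmb9 were called higher (limma adjusted p = 0.024 and 0.026), whereas Psmb10 was not (0.12). Under total-read scaling without the block all 3 were called higher in mouse, by 2.90, 2.73 and 2.35. Without UIS 512 the differences of Psmb8, Psmb9 and Psmb10 were 1.05, 0.94 and 0.55, not called.

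**Figure D2:**
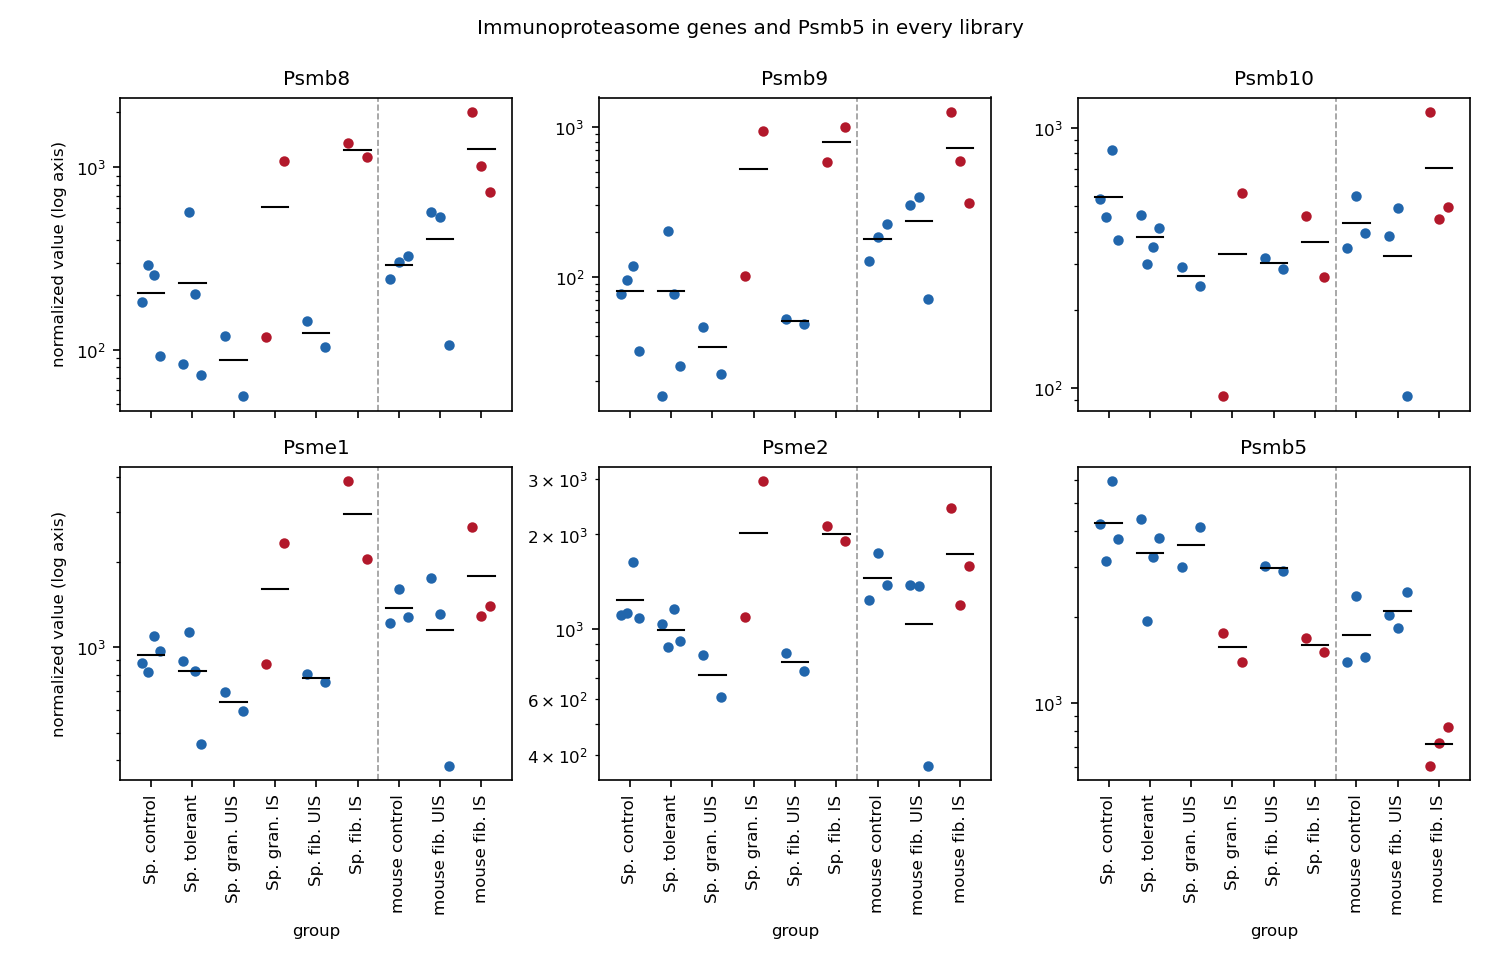
Normalized counts (log axis) of Psmb8, Psmb9, Psmb10, Psme1, Psme2 and Psmb5 in each of the 25 libraries by group, with red points for tumors, blue points for the other libraries, a bar at each group mean and a dashed line between the species. Psmb8 and Psmb9 are high in both Spalax fibrosarcomas, in granuloma 976 and in the mouse tumors, and lower in granuloma 600, while Psmb5 is lower in the tumors.

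Set against its constitutive partner within a library, Psmb8 stood higher than in muscle in each tumor but granuloma 600. This ratio is free of the scaling between libraries but not of gene length, so only its change is read. The log2 ratio of Psmb8 to Psmb5 was -4.52, -3.43, -4.54 and -5.33 in Spalax controls, -4.39 and -4.80 in fibrosarcoma UIS and -0.31 and -0.40 in fibrosarcoma IS. In granuloma it was -4.64 and -6.20 in UIS and -3.89 and -0.35 in IS of 600 and 976. Granuloma 976 was thus at the level of the fibrosarcomas and granuloma 600 within the range of the controls. In mouse the ratio was -2.50, -2.97 and -2.15 in controls, -1.84, -1.77 and -4.50 in UIS and 1.74, 0.48 and -0.19 in IS, above the control range in all 3 tumors. The log2 ratio of Psmb9 to Psmb6 was -5.74, -5.20, -5.70 and -6.88 in Spalax controls, -6.04 and -7.37 in the UIS of granuloma bearers and -4.29 and -0.997 in their tumors, so that granuloma 600 lay above all controls and UIS libraries for this pair. In fibrosarcoma it was -6.04 and -5.83 in UIS and -1.42 and -1.47 in IS, and in mouse -3.71, -3.38 and -6.01 in UIS and -0.28, -1.34 and -2.82 in IS. The log2 ratio of Psmb10 to Psmb7 was -3.07 and -3.39 in the UIS of granuloma bearers and -4.03 and -1.45 in their tumors, with 600 the lower. For that pair it was -3.29 and -3.19 in Spalax fibrosarcoma UIS and -1.89 and -1.83 in IS, and in mouse was -2.78, -2.49 and -5.70 in UIS and 0.46, -1.02 and -1.28 in IS.

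Scaled by transcript length, which allows genes to be compared within the mouse table, Psmb5 stood at 1932 ± 612 normalized counts per kb in control, 2334 ± 343 in UIS and 801 ± 125 in IS (mean ± SD, n = 3 each). Psmb8 stood at 179 ± 25.8, 247 ± 158 and 771 ± 416 on the same scale. The constitutive subunit was the more abundant in all 6 muscle libraries, and in the tumors the means were close, with a wide spread for Psmb8. Psmb5 is the less certain of the pair, since part of its read windows occurs in other genes.

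Leukocyte genes stood higher in all 4 Spalax tumors than in the control and UIS libraries, granuloma 600 included, and in 2 of the 3 mouse tumors than in mouse muscle. Of 13 leukocyte markers, 12 had a line in Spalax, and their summed level was 1619.9 to 3175 in control, 1078 to 3040.2 in granuloma UIS and 1695 to 2042 in fibrosarcoma UIS. In granuloma IS it was 7812 in animal 600 and 17512 in animal 976, and in fibrosarcoma IS 9595 to 21627. The T cell gene Cd8a was at 0 in granuloma 600, as it was in control 6038 and in UIS of 976 and 2230. In granuloma 600 and its UIS, Cd3d stood at 28.3 and 18.1, Nkg7 at 10.2 and 3.62, and Cd3e at 8.71 and 10.9. In mouse, with all 13 in the table, the sum was 4614 to 8106 in control, 803 to 7501 in UIS and 6754 to 49492 in IS, with mouse 512 lowest on both sides. Of those tested, 3 of 10 were called higher in granuloma, 8 of 10 in Spalax fibrosarcoma (and 1 lower) and 4 of 12 in mouse. Their part in the rise of the inducible subunits was not tested. Among the tolerant animals, 2251 had a leukocyte sum of 16976 and the highest Psmb8 and Psmb9 (572 and 202, against 83.3, 201 and 72.4 and 15.9, 76.6 and 25.5 in 2218, 2261 and 2375), with a Psmb8 to Psmb5 log2 ratio of -1.76.

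The activators split by kind. Psme1 and Psme2 form the interferon-inducible PA28 ring that caps the immunoproteasome. In Spalax fibrosarcoma Psme1 stood at 805 and 755 in UIS and 3872 and 2062 in IS, and Psme2 at 842 and 738 in UIS and 2120.5 and 1901 in IS. Both tumors were above all 4 controls, whose Psme1 was 878, 817, 1094 and 972 and Psme2 1106, 1124, 1632 and 1085. The log2 differences were 1.86 ± 0.37 and 1.35 ± 0.22 (limma adjusted p = 0.023 and 0.015). In granuloma they were 1.16 ± 0.54 and 1.34 ± 0.55 and not called, with animal 976 far above 600. In granuloma IS of 600 and 976 Psme1 stood at 873 and 2344 and Psme2 at 1092 and 2953. In mouse Psme1 stood at 1763, 1317 and 382 in UIS and 2661, 1289 and 1399 in IS. Psme2 stood at 1379.8, 1371 and 369 in UIS and 2434, 1190.5 and 1583 in IS, and neither was called (0.81 ± 0.61 and 0.91 ± 0.58). Without UIS 512 these differences were 0.15 and 0.27. With total-read scaling Psme2 was called higher in mouse and granuloma, by 1.97 and 2.08 (limma adjusted p = 0.041 and 0.0496). The tumors overlapped the UIS libraries for both genes in mouse, where 44.2% of Psme2 windows are shared with Psme2b.

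Psme4, the large single-chain activator PA200 of the nucleus, fell in all 3 tumors relative to the median gene. In granuloma it stood at 6019 and 6746 in UIS and 2264 and 1794 in IS, in Spalax fibrosarcoma at 5324 and 5007 in UIS and 1854 and 2324 in IS, and in mouse at 6052, 8144 and 24785 in UIS and 2211, 2565 and 2935 in IS. Every tumor lay below every UIS library of its comparison. The log2 differences were -1.66 ± 0.33, -1.31 ± 0.24 and -2.07 ± 0.53, with limma adjusted p of 0.026, 0.018 and 0.021. On the total-read scale they were -0.92, -0.51 and -0.998 and not called (limma adjusted p = 0.079, 0.12 and 0.09). Psme3, the nuclear PA28 gamma, differed by -0.45, 0.01 and -0.11 and Psmf1, the inhibitor PI31, by -0.96, -0.20 and -0.45, with none called. With total-read scaling Psme3 reached 0.29, 0.82 and 0.96, called higher in Spalax fibrosarcoma and mouse (limma adjusted p = 0.035 and 0.008).

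The chaperones of the 20S core, Psmg1 to Psmg4, assemble the alpha ring and did not share a direction. Psmg4 stood at 445 and 354 in Spalax fibrosarcoma UIS and 149.9 and 115 in IS, a difference of -1.59 ± 0.34 (limma adjusted p = 0.028), and at 491 and 359 in granuloma UIS and 189 and 177 in IS (-1.19 ± 0.43, limma adjusted p = 0.099). In mouse Psmg4 measured 125, 123 and 63.3 in UIS and 115, 123 and 117 in IS, with the groups overlapping (0.25 ± 0.40). Psmg1 differed by -0.37, 0.39 and 0.36 in granuloma, Spalax fibrosarcoma and mouse, Psmg3 by 0.58, 0.05 and 0.06, and Psmg2, measured in mouse alone, by -0.44. None of these was called.

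Whether the tumors differed from each other was tested on the difference between differences. Between granuloma and Spalax fibrosarcoma 0 members and 0% of all genes were called. An unadjusted p under 0.05 was found for 0 members and for 766 of 15584 genes. The count tests edgeR and DESeq2 also called 0 members. The largest term was that of Psmd7, a lid subunit, at 1.49 ± 0.90 (limma adjusted p = 0.95). Comparing the 2 tumors directly, limma, edgeR and DESeq2 called 0 members and limma 0% of genes, with 0 members at an unadjusted p under 0.05. Between Spalax and mouse fibrosarcoma 0 of 45 members were called, where 3.95% of all genes were. At an unadjusted p under 0.05 were 5 members and 2390 of the 11085 genes tested. The smallest adjusted p were those of Psmg4 (-1.84 ± 0.56, limma adjusted p = 0.11), Psma6 (1.39 ± 0.40, limma adjusted p = 0.09) and Psmb4 (1.11 ± 0.37, limma adjusted p = 0.12), where a positive term is a higher IS to UIS difference in Spalax. These 3 were called by DESeq2 and not by edgeR. For Psmb8 and Psmb9 the terms were 1.5 ± 1.01 and 2.24 ± 1.08 (limma adjusted p = 0.43 and 0.27), so their calls in Spalax alone do not show a difference between the species.

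The calls rest on few animals. Leaving out 1 library of a Spalax tumor comparison leaves 1 library on 1 side, too few to count calls. The median of the members then spanned -1.20 to -0.56 in granuloma and -0.58 to -0.18 in Spalax fibrosarcoma. In mouse 6 members were called without IS 1023, 8 without IS 1019, 15 without UIS 1023, 18 without IS 512 and 26 without either of the other UIS libraries. Of all genes 26.9%, 30.6%, 29.3% and 40.8% were called in these fits, and 38.8% and 45.7% without UIS 1019 and UIS 512. The median of the members was -0.56 in granuloma without UIS 976 and -0.73 in mouse without UIS 512. Without UIS 512 Psmd8 and Psme4 had limma adjusted p of 0.013 and 0.0078 in mouse. With the animal as a block 3, 8 and 28 members were called in granuloma, Spalax fibrosarcoma and mouse. Of all genes 21.1%, 33.2% and 44.1% were called so.

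Genes that work with the proteasome were called lower beside the constitutive subunits, under the authors' size factors. Of 15 tested partners outside the naming rule, 7 were called lower in granuloma, 6 in Spalax fibrosarcoma and 6 in mouse, with 0 higher, beside 12.6%, 19% and 22.3% of all genes called lower. Zfand5, a zinc finger protein that binds the 26S particle and stimulates degradation in atrophying muscle, differed by -3.02 ± 0.60, -1.81 ± 0.24 and -2.91 ± 0.58 (limma adjusted p = 0.025, 0.0094 and 0.0095). Ecpas, a proteasome adaptor listed as Kiaa0368 in Spalax and AI314180 in mouse, differed by -2.61 and -2.46 in the Spalax tumors and -2.13 in mouse. Of the ubiquitin genes and regulators, 8 of 18 were called lower in granuloma, 8 of 18 in Spalax fibrosarcoma and 8 of 19 in mouse, beside those same background shares, with 1, 0 and 1 higher, the rise being Uba6, a ubiquitin-activating enzyme (1.76 in granuloma, where the call was lost with the animal as a block, and 1.92 in mouse). Trim63 differed by -10.13, -9.34 and -9.15 on the log2 scale and Fbxo32 by -8.33, -4.32 and -6.58, all called lower. Nfe2l1, the transcription factor that drives proteasome genes when proteolysis falls short, differed by -2.45, -2.30 and -2.56 and was called lower in each. Trim63 and Fbxo32 are muscle genes, and the muscle fiber markers fell beside them (8 of 8, 8 of 8 and 10 of 11 called lower); the part of muscle content in these falls was not tested.

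Of 17 class I presentation and interferon genes tested, 2 were called higher in granuloma, 14 in Spalax fibrosarcoma and 7 in mouse, with 0 lower. Chaperones (Calr, Canx, Pdia3) and interferon receptors and kinases are among them. Over all genes 11.7%, 17.4% and 22.8% were called higher, so the granuloma count was at the background. In Spalax fibrosarcoma the largest were Nlrc5, the transactivator of class I genes, at 4.33 ± 0.54 and Tap1, which carries peptides into the endoplasmic reticulum, at 3.69 ± 0.42 (limma adjusted p = 0.0084 and 0.007). In mouse they were Nlrc5 at 2.62 ± 0.70 and Pdia3, a chaperone of the loading complex, at 2.21 ± 0.30 (limma adjusted p = 0.024 and 0.0032). In granuloma Calr, a chaperone of class I folding, and Jak2, a kinase of the interferon receptor, were the 2 called, at 2.17 ± 0.38 and 1.93 ± 0.46 (limma adjusted p = 0.019 and 0.037). The list was chosen with results of these libraries known.

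Away from the tumors the constitutive genes varied with single animals more than with groups. In mouse UIS against control, 0 members and 0% of all genes were called by limma, and edgeR and DESeq2 called 0 members. An unadjusted p under 0.05 was found for 4 members and for 1621 of 14792 genes. The median of the members was 0.63 against -0.02 over all genes (0.36 and -0.29 under total-read scaling), and 15 members were higher in all 3 UIS than in all 3 control libraries, against 9.53% of all genes. Psmd4, the ubiquitin receptor, which had the smallest p of the members, stood at 2435, 3508 and 3319.7 in control and 4195, 5235 and 12686 in UIS (1.10 ± 0.43, limma adjusted p = 0.45). Much of this height was mouse 512, whose members had a median of 1.17 above the control mean on the log2 scale, against 0.27 and 0.44 in mice 1019 and 1023. Without mouse 512 the median of the members was 0.37. The summed level of 4 fat genes was 105536 to 166395 in control and 6264 to 73407 in UIS. Of these genes Adipoq overlapped, at 5349 in control M2 and 7122 in UIS of 1023. The muscle sum was 1128580 to 2393990 in control and 1994450 to 4530110 in UIS. The part of fat and muscle content in the result was not tested.

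In mouse 512 the 19S genes led. The UIS library of that animal had a median of 1.87 over the ATPases and 1.66 over the Psmd genes, against 1.17 over the alpha subunits and -1.43 over the tested inducible subunits. Psme4 stood at 24785 there, against 6052 and 8144 in the other UIS libraries and 5355, 7929 and 8021 in controls. The atrophy ligase Trim63 stood at 236435 in UIS of 512, at 5402 and 18019 in those of 1019 and 1023, and at 3011, 2991 and 5906 in controls. Its leukocyte sum was 803, the lowest of the mouse libraries.

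In Spalax the UIS library of granuloma 976 had the like profile, with 0.46 over the members, 0.76 over the ATPases, 0.88 over the Psmd genes and -1.66 over the inducible subunits. Trim63 stood at 36366 in it, 3.11 above the control mean on the log2 scale. Of the tolerant animals, 2375 had a higher Trim63 (3.71, 55174 normalized counts) with members at 0.05 and Psmd genes at 0.26. High Trim63 thus came with high 19S genes in 2 of these 3 libraries, and the libraries were singled out after their values were seen. The other Spalax UIS libraries lay at -0.36, -0.21 and -0.33 over the members.

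**Figure D3:**
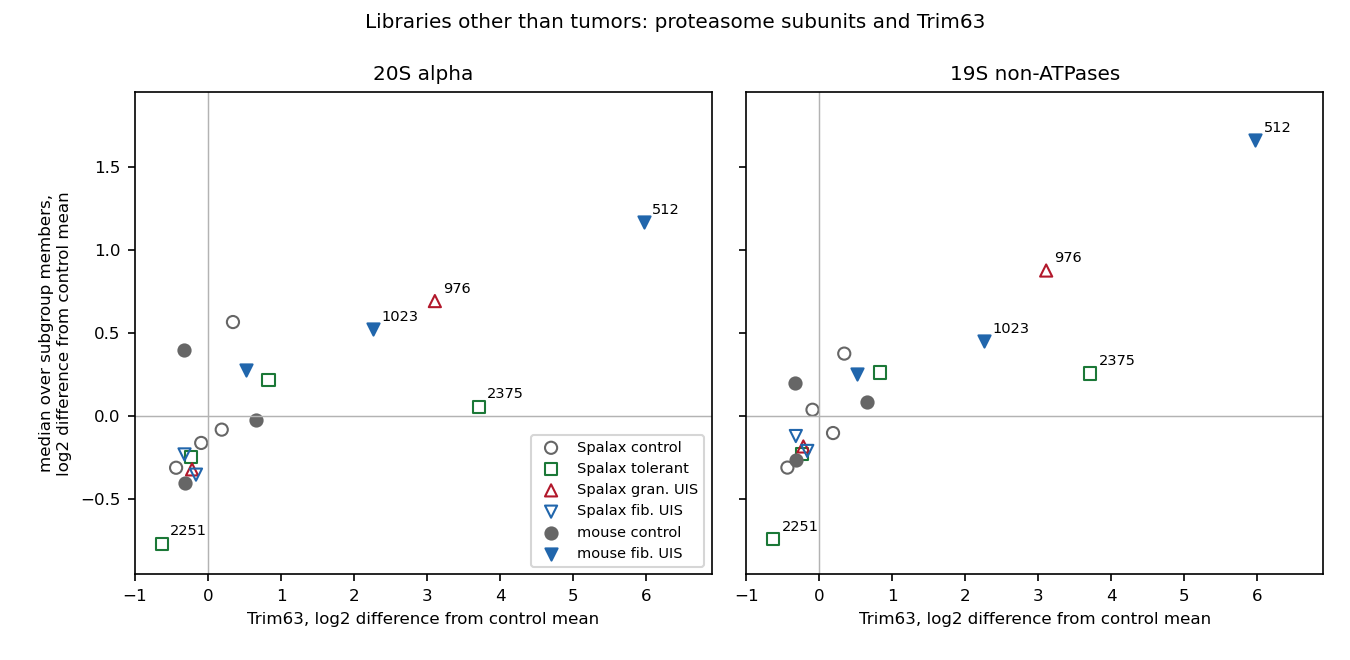
Median log2 difference from the control mean over the 20S alpha subunits and over the 19S non-ATPase (Psmd) genes (vertical axes) against that of Trim63 (horizontal axis) in the libraries without tumor, with open points for Spalax and filled points for mouse. UIS of mouse 512 is farthest right and highest, and UIS of Spalax 976 stands above the other Spalax libraries for the 19S genes.

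Spalax UIS against control called 0 members and 0% of all genes with limma, and the median of the members was -0.12. An unadjusted p under 0.05 was found for 4 members and for 2315 of 13909 genes. The 3 inducible subunits all had negative differences, with a median of -0.87. Psmb10 stood at 292 and 247 in granuloma UIS and 316 and 289 in fibrosarcoma UIS against 532, 456, 827 and 370.1 in controls, and Psme2 at 826 and 609 in granuloma UIS and 842 and 738 in fibrosarcoma UIS against 1106, 1124, 1632 and 1085 in controls. Neither gene overlapped between the groups, and Psme1 did not either. These were 3 of 46 members lower without overlap, beside 862 of 13909 genes, which is about the background. The log2 differences of Psmb10 and Psme2 were -0.87 ± 0.26 and -0.70 ± 0.20 (limma adjusted p = 0.21 and 0.2). For these 2 genes edgeR called neither and DESeq2 called both lower (adjusted p = 0.043 and 0.046). The controls and these animals differ in index type, which cannot be told apart from the group.

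Tolerant animals, whose injected side grew no tumor, called 0 members and 0% of all genes against control. An unadjusted p under 0.05 was found for 1 member (Psma8) and for 733 of 14020 genes. Here 44 of 46 members had a negative difference, 35 of 46 with total-read scaling and 23 of 46 without animal 2251. Their median was -0.18 against -0.03 over all genes, and 0.01 without animal 2251. The library of 2251 lay at -0.77 over the members, the lowest of the non-tumor libraries. It also had the lowest muscle sum of these (997526), the highest fibroblast sum (184469, the other tolerant animals 7251 to 41662) and the highest leukocyte sum, whose part in this was not tested. The others lay closer to control, with 2218, 2261 and 2375 at 0.19, -0.25 and 0.05. UIS of tumor-bearing Spalax against tolerant animals, which shares its libraries with both comparisons above, called 0 members and 0.00713% of all genes. The members' median was 0.06, and an unadjusted p under 0.05 was found for 0 members and for 718 of 14029 genes. Psmb8 spanned 83.3, 572, 201 and 72.4 in the tolerant animals 2218, 2251, 2261 and 2375, a range that covers all controls and UIS libraries but 1, that of granuloma 976. DESeq2 and edgeR called 0 members in UIS against tolerant animals.

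Psma8 replaces Psma7 in the core of the testis and is nearly silent elsewhere. In Spalax it stood at 5.52, 0.899, 11.2 and 1.99 normalized counts in controls and 54.2, 12.8, 50.4 and 45.6 in tolerant animals. In tumor-bearing animals it stood at 90.4 and 20 in granuloma UIS, 232 and 0.604 in granuloma IS, 17.1 and 26.7 in fibrosarcoma UIS and 47.4 and 1.84 in fibrosarcoma IS. All tolerant and UIS libraries were above all 4 controls, while the IS libraries spanned both ends. Psma8 was the 1 member of 46 that was higher without overlap in either comparison. Of all genes, 351 of 14020 were so in tolerant animals and 911 of 13909 in UIS. The highest Psma8 values, 90.4 and 232, came from both sides of the female 600. The controls were all female and most tolerant animals male, so sex was not balanced in that comparison. The female tolerant animal, 2375, stood at 45.6. In UIS the females 600, 976 and 2240 stood at 90.4, 20 and 26.7 and the male 2230 at 17.1. The part of sex was not tested. Against control the log2 difference was 2.99 ± 0.72 in tolerant animals and 2.76 ± 0.73 in UIS, both on low counts and neither called by limma (adjusted p = 0.63 and 0.19), and both comparisons used the same controls. DESeq2 called Psma8 higher in both (adjusted p = 0.025 and 0.014). In mouse Psma8 was at most 6.72 in any library. Psmb11, the beta subunit of thymic cortical epithelium, was at most 3.68 in mouse and could not be tested in either species, and Psme2b, a near copy of Psme2, was too low in mouse to be tested there, with 68.2, 21.4 and 6.84 in IS.

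**Figure D4:**
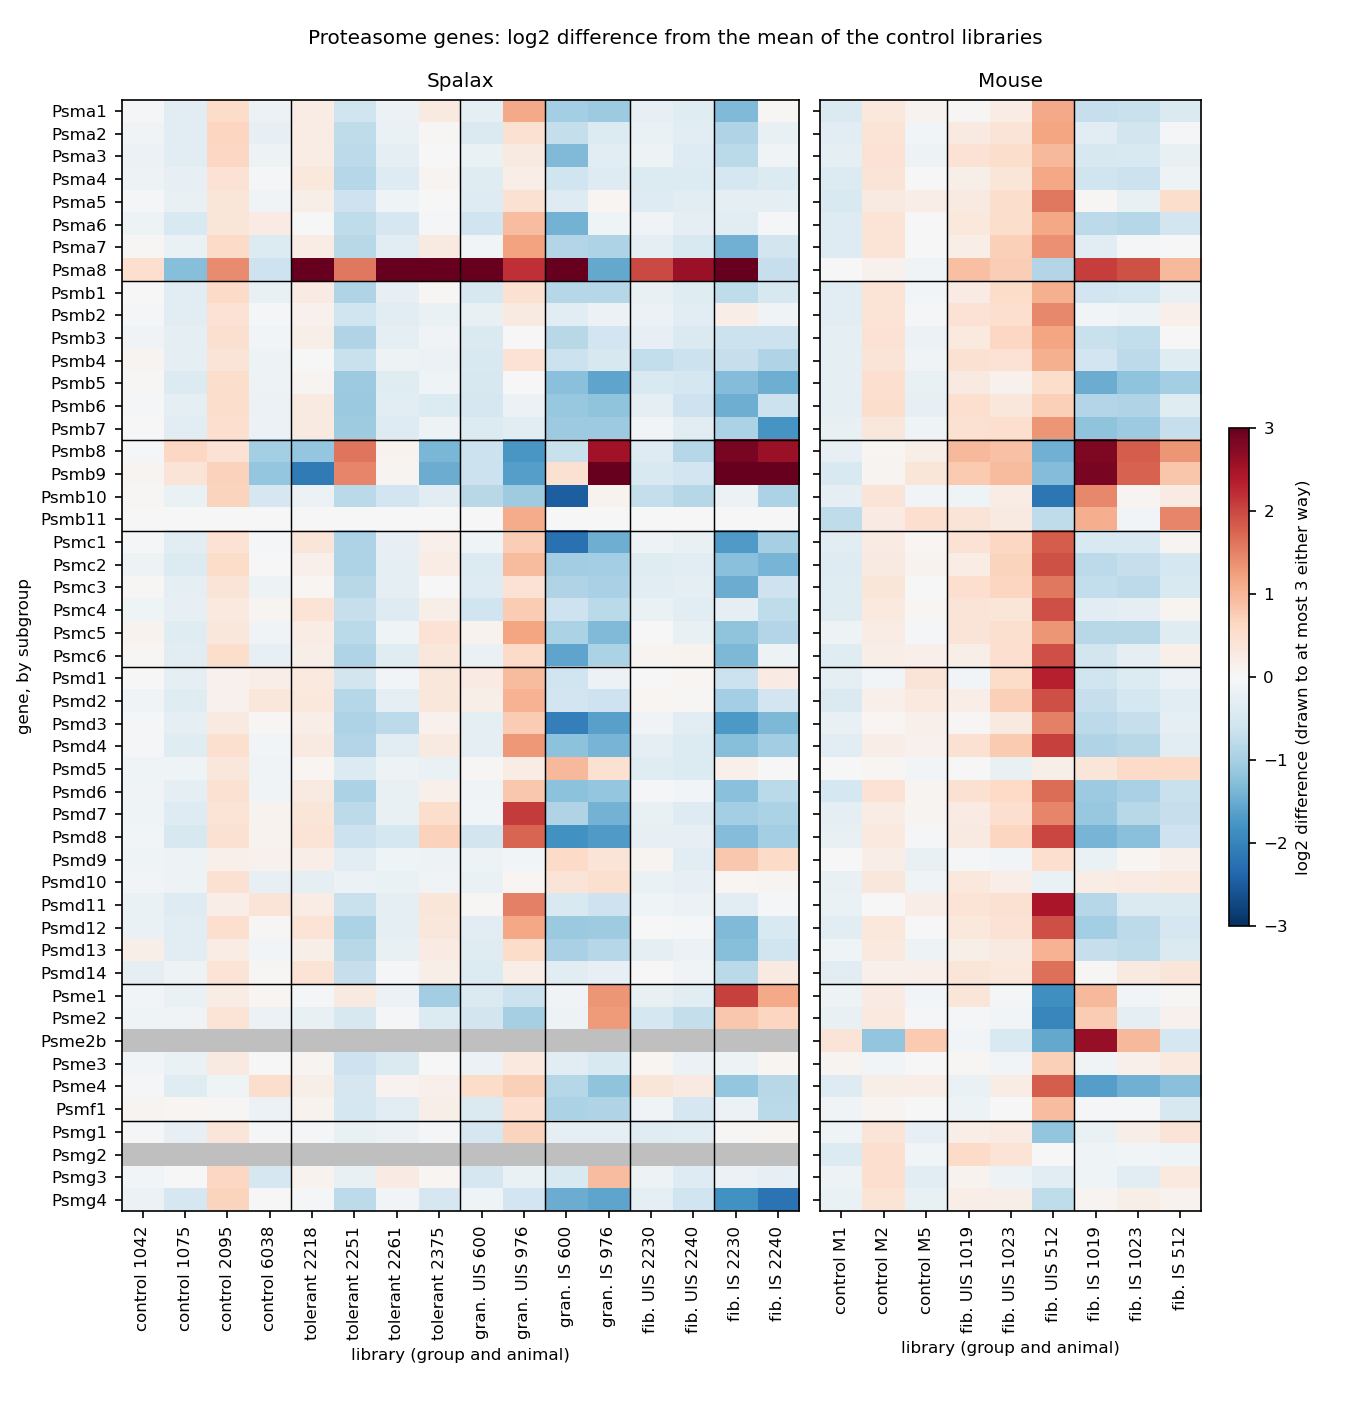
Log2 difference of each of the 49 genes from the mean of its species' controls in every library, with genes in rows ordered by role and libraries in columns by group, red for higher, blue for lower and gray where the gene has no line in that table. On the scale of the authors' size factors, core and 19S rows are blue in most tumor columns, Psmb8 and Psmb9 are red there except Psmb8 in granuloma 600, and UIS of mouse 512 and of Spalax 976 show red 19S rows.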

How the data were processed

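RNA was sequenced from neck tissue of 16 Spalax and 9 mouse libraries, as single-end reads of 101 cycles. The authors trimmed the reads with Trimmomatic, aligned them with TopHat (TopHat2 in the methods, 1.4.1 in the submitters' processing notes, which name the build GRCm38), counted them per gene with HTSeq, and deposited a signal per gene, namely read counts divided by 1 size factor per library (DESeq). All value columns were used (0 left out). The deposited gene names came with a comma for each lower-case t in Spalax, which was read as t, and values were taken from the line end. Whole reads were recovered by division and came out whole for 100% of values within 0.1 read. Names and positions in mouse came from GENCODE vM21 on GRCm38.

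The main test was limma 3.58.1 (lmFit, eBayes with trend, R 4.3.3) on log2(value + 1), which understates changes of low genes, over genes that reached 10 normalized counts in a number of libraries equal to the smallest group. Only the libraries compared entered a fit, and p was Benjamini-Hochberg adjusted over all genes tested, with calls at 0.05. Alternatives were a pseudocount of 0.1, no filter, scaling by total reads, edgeR 4.0.16 (quasi-likelihood) and DESeq2 1.42.0 on recovered reads, 1 model per species, the animal as a block, and leaving out each library. IS and UIS came from the same animal, so the numbers pair the samples. Deviations of the 2 sides correlated at 0.125, 0.047 and 0.178 in mice 1019, 1023 and 512, and at 0.009 and -0.002 in granuloma and Spalax fibrosarcoma. The labels name separate animals as replicates. The fit was tested on simulated data. Species tables were normalized separately, and levels were not compared between them. Reads carry no molecular identifiers.

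All members are accounted for. Named with values were Psmb5 to Psmb10, Psme1 to Psme4, Psmf1, Psma8, Psmb11, Psmg1 to Psmg4, the 3 largest rises and falls called in each comparison, and of each pathway list the 2 largest rises and falls called. Members, lists and tests were chosen with earlier results of these data known.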

Additional observations from a re-analysis of the deposited data

Results flagged for a closer look

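In groups of 4 libraries, the highest or lowest library was compared with the rest by Dixon's ratio, in 96 sets of a gene and a group. In 22 of them 1 library stood apart. Chance gives about 1 in 20 sets only where the sets are independent and chosen without regard to the values. Here the sets share the same libraries, and some genes were picked as the largest calls in these data. The count of 22 therefore cannot be weighed against chance. Of the 22, 11 were the UIS library of granuloma 976 among the 4 Spalax UIS libraries. It was highest for Psmc1 (9561, the others 4897 to 5206), Psmd3 (7427, 3464 to 4063), Psmc5 (9312, 3555 to 4454), Psmd8 (24077, 4850.3 to 6068), Psmd6 (7025, 3773 to 3854), Psmb5 (4135, 2896 to 3024) and Psmg1 (1127, 499 to 571). The same library was highest for the proteasome-binding Zfand5 (25303, 6233 to 9081), for Trim63 (36366, 3375 to 3763) and for Pdia3 (6575, 2397 to 2739.8). Its Psmb11 value of 1.18 is a single read and the others were at 0. For Psma8 the UIS of animal 600 was highest, at 90.4 against 17.1 to 26.7.

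Among tolerant animals, 2375 was highest for Trim63 (55174, the others 2724 to 7495) and Fbxo32 (24693, 1795 to 3206). Animal 2251 was lowest for Psme4 (2921, 4408 to 4638) and highest for Jak2 (1067, 326 to 413) and Nlrc5 (209, 32.2 to 54.7). Among controls, 2095 was highest for Psme2 (1632, 1085 to 1124), 1075 for Jak2 (429, 248 to 272) and 6038 for Fbxo32 (4822, 2809 to 3115), and 6038 was lowest for Psmf1 (848, 990.4 to 1010.4) and Nlrc5 (17.9, 55.2 to 56.1). No cause was tested for any of these.

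Of the pathway genes, Jak2 differed between the species in its IS against UIS difference, by 3.04 ± 0.61 on the log2 scale (limma adjusted p = 0.035). The call was lost with the animal as a block (limma adjusted p = 0.10), with total-read scaling (0.0501), and in 6 of the fits without 1 library (0.051 to 0.17). Its log2 difference was 2.77 in Spalax fibrosarcoma and -0.27 in mouse, where IS and UIS libraries overlapped.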

How the results depend on the processing

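Both the number of members called and their direction depended on the setting. In granuloma, 3 members were called with a pseudocount of 0.1, with no filter, with total-read scaling (all higher), with edgeR and with the animal block. The count was 16 with DESeq2 and 22 with 1 model over all Spalax libraries. Of all genes 22.2%, 13%, 30.7%, 20.2%, 21.1%, 36.5% and 42.9% were called, in the order of these settings. In Spalax fibrosarcoma, 8 were called with no filter and with the animal block, 9 with edgeR and with 1 model, 14 with total-read scaling (all higher), and 0 to 27 when 1 library was left out. Of all genes 22.4%, 33.2%, 34.7%, 40.4% and 46.6% were called there with no filter, the block, edgeR, 1 model and total-read scaling. The range of 0 to 27 comes from fits with 1 library on 1 side, too few to count calls, and cannot be weighed. In mouse, 10 were called with total-read scaling (9 higher), 28 with the animal block, and 6 to 26 when 1 library was left out. Of all genes 60.8%, 44.1% and 26.9% to 45.7% were called, in that order. DESeq2 called 3 members in Spalax UIS against control, 1 in tolerant animals against control and 3 in the interaction with species. Of all genes it called 3.71%, 0.428% and 15.4% there. Leaving out 1 mouse library in that interaction gave 0 to 1 with limma, beside 0.5% to 7.01% of all genes. Total-read scaling moved the members' median to -0.157 in granuloma, 0.509 in Spalax fibrosarcoma and -0.00273 in mouse.

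Leaving out 1 library moved the median from -1.20 to -0.564 in granuloma, -0.580 to -0.177 in Spalax fibrosarcoma, -1.25 to -0.729 in mouse, 0.167 to 0.781 in the interaction with tumor type and 0.386 to 0.946 in that with species. It moved from -0.307 to 0.0336 in Spalax UIS against control, -0.306 to 0.00577 in tolerant against control, -0.0819 to 0.214 in UIS against tolerant, 0.0287 to 0.288 between the Spalax tumors and 0.375 to 0.825 in mouse UIS against control. The calls that the animal block moved are given beside the results for the genes described there, and the block leaves each difference as it was, moving only its error.

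Some signs turned. With total-read scaling granuloma Psmb10 was 0.51, Psmb7 0.0185, Psme3 0.29 and Psmg1 0.37, Spalax fibrosarcoma Psmb6 0.22 and Psmf1 0.61, and mouse Psme3 0.96, Psmf1 0.62 and Psmg2 0.63. With edgeR and DESeq2 granuloma Psmb10 was 0.37 and 0.31, granuloma Psma8 1.09 and 1.05 and fibrosarcoma Psma8 0.16 and 0.13, and with DESeq2 fibrosarcoma Psme3 was -0.0379. When 1 library was left out, granuloma Psmb10 spanned -1.52 to 1.06, Psma8 -4.77 to 2.41, Psmg1 -0.96 to 0.22 and Psmg3 -0.12 to 1.28. In Spalax fibrosarcoma Psmb10 spanned -0.17 to 0.60, Psme3 -0.12 to 0.13, Psmf1 -0.51 to 0.12, Psma8 -2.97 to 1.11 and Psmg3 -0.0695 to 0.167. In mouse Psme3 spanned -0.26 to 0.13, Psmg1 -0.11 to 0.61, Psmg3 -0.11 to 0.20 and Psmg4 -0.0635 to 0.419. The causes were not tested. Of 342 gene results with 1 library left out, 236 kept direction and call, 85 lost the call, 5 gained it and 16 turned sign. Groups of 2 to 4 animals limit what the calls show.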
